A study of Mus musculus with 9 samples.

Results

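Fibroblasts of the splenic red pulp (RPF) were compared with the fibroblastic reticular cells of lymph nodes (FRC), both at steady state. The libraries were chosen by their labels alone, 3 RPF against 3 FRC libraries, which are 6 of the 9 libraries of the series, and all genes entered the comparison. All mice were Wt1CreERT2 RosatdTomato CD64DTR animals aged 4 months, so all groups carried the same Cre, reporter and diphtheria toxin receptor alleles. RPF came from 6 spleens of untreated mice and were sorted as tdTomato+ cells, that is, as cells in which a Cre driven by Wt1 had switched on the reporter. FRC came from 78 lymph nodes of untreated mice and were sorted as tdTomato- cells. In each group 45000 cells were sorted and polyA RNA was sequenced in 3 libraries, each a pool of 2 mice. The p-values therefore measure the spread between pools, and the labels do not say which FRC and RPF pools hold the same mice. Replicate numbers given below follow the order of the library labels within a group, and equal numbers in RPF and FRC mark no pair. The other 3 libraries were RPF of mice of the same genotype and age given diphtheria toxin. They entered the filter on low counts, the scaling and the estimate of the spread, but not the contrast.

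Reticular fibroblasts build the scaffold on which blood cells and lymphocytes move in lymphoid organs. In the red pulp they span cords through which blood percolates past macrophages that remove aged red cells and recycle their iron. In lymph nodes FRC enwrap a network of matrix conduits and guide lymphocytes with the chemokines CCL19 and CCL21. The spleen forms from a mesenchyme that needs homeobox factors such as Tlx1, whereas mesenchyme of the body wall and limbs keeps a code of Hox genes from development. The comparison asks how far these stromal cell types differ in what they sense, secrete, transport, transcribe and metabolise. All RPF were tdTomato+ and all FRC tdTomato-, so organ and sorted subset cannot be told apart.

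The total count per library ran from 25414645 to 43879806. Levels are counts scaled by library size with TMM factors (CPM), given as mean ± SD of 3 libraries. The sort was visible in the RNA: Wt1 was at 62.1 ± 2.57 CPM in RPF and 1.64 ± 1.18 CPM in FRC, and Pdpn, which encodes the stained protein gp38, at 0.0981 ± 0.0874 and 74.1 ± 3.79 CPM. Vcam1, also a stained marker, was at 1590 ± 206 CPM in RPF and 2983 ± 499 CPM in FRC. These genes took part in the sort and are no finding. The 6 markers of T zone reticular cells, the FRC of the paracortex, were all lower in RPF, Pdpn of the sort among them. They summed to between 39.9 and 75.3 CPM in RPF and between 7640 and 8390 CPM in FRC. Of the leukocyte and endothelial genes of the sort, Ptprc was at 11.3, 7.21 and 0.199 CPM in RPF and 7.44, 0.307 and 0 CPM in FRC, and Pecam1 at 7.94, 3.44 and 0.232 and 6.13, 10.6 and 3.37 CPM. Both were low in both cell types and neither was called. Fcgr1, a myeloid receptor gene, was too low to be tested, at 0.958, 1.68 and 0 CPM in RPF with 1 count in FRC. In bulk RNA, fewer cells of a type and less RNA per cell cannot be told apart.

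Of 15103 genes tested with edgeR's quasi-likelihood test at a Benjamini-Hochberg adjusted p under 0.05, 1734 were higher in RPF (11.5% of the genes tested) and 2174 lower (14.4%). Beyond 2-fold these were 1352 (8.95%) and 1667 (11.0%). All RPF libraries lay above all FRC libraries for 21.5% of the genes tested and below them for 23.1%. The RNA of FRC was the more concentrated: the 10 most abundant genes held between 17.8% and 19.5% of the counts of an FRC library and between 10.3% and 11.1% of an RPF library. The median log2 fold change of RPF over FRC across all genes was -0.02 with TMM scaling and 0.14 with upper quartile scaling. With the latter, 2158 genes were higher and 1821 lower, so the share of calls that were higher in RPF was 54.2% in place of 44.4%. The counts by gene class were uneven. Of 386 tested genes of secreted factors 53 were higher and 188 lower in RPF (median log2 fold change -1.86), and of 283 transcription factor genes 41 were higher and 98 lower (-0.71). Surface receptors were nearer to balance, with 105 higher and 115 lower of 475 (-0.31). Channels and transporters had 46 higher and 61 lower of 287 (-0.21), and metabolic genes 49 higher and 116 lower of 467 (-0.15). Where leaving out a single library moved a count of 3 or more genes of a list by over 1.5 times, its lowest and highest count over the 6 libraries left out in turn follow in brackets.

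**Figure D1:**
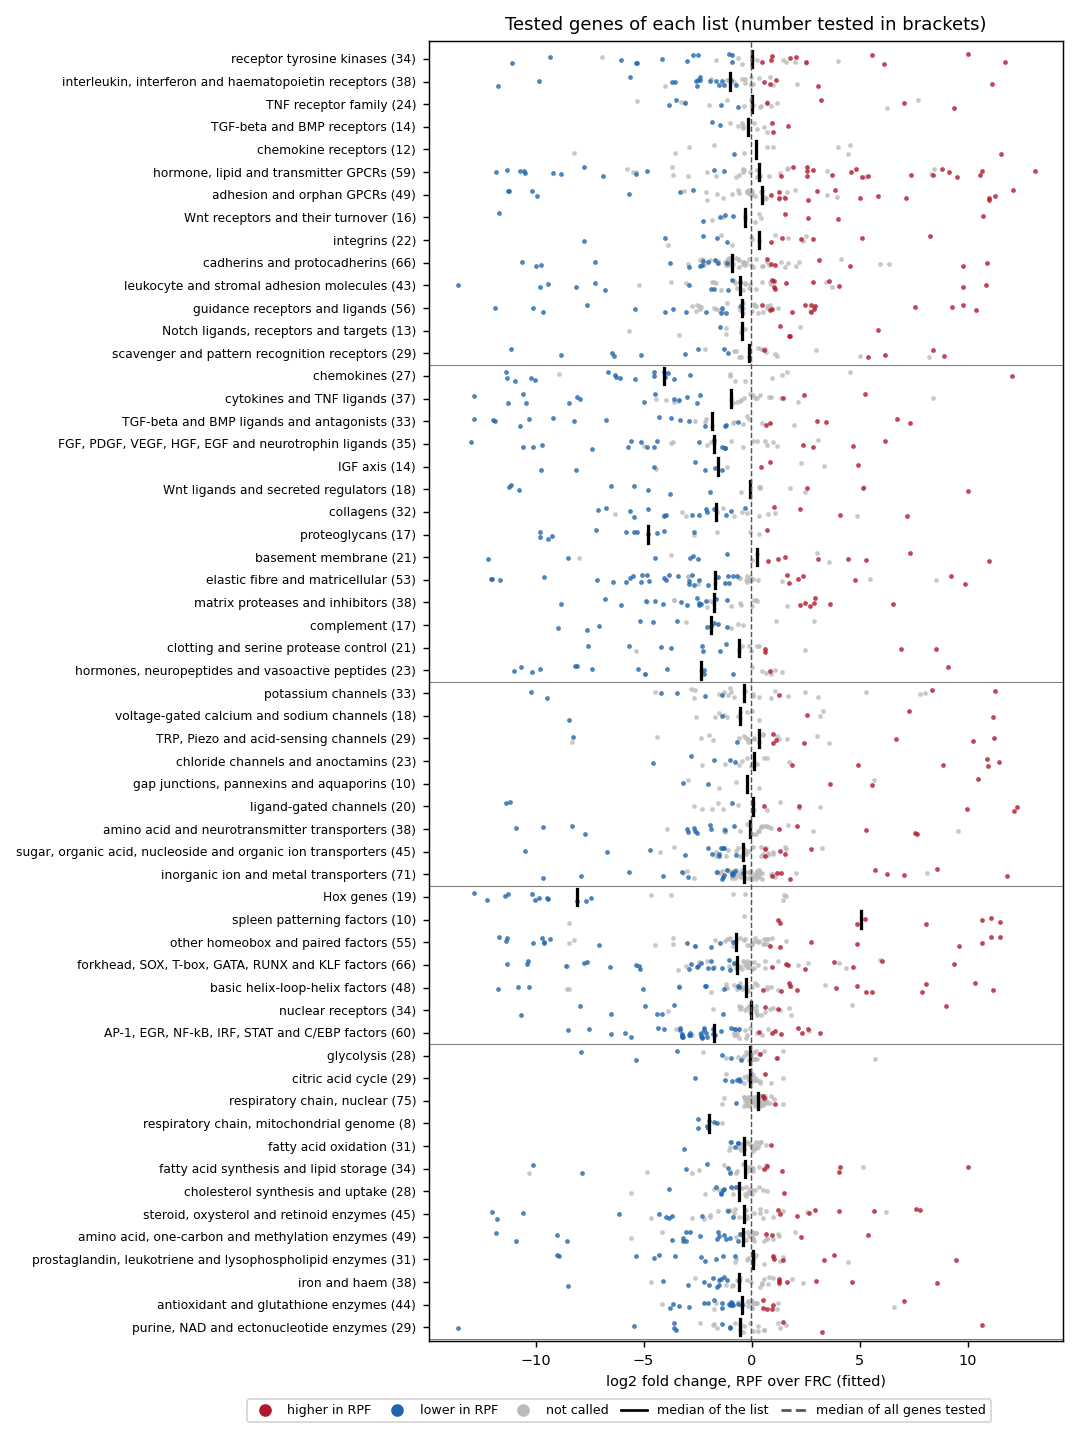
Fitted log2 fold change of RPF over FRC (x axis) for every tested gene of each list (y axis, number tested in brackets), grouped as surface receptors, secreted factors, channels and transporters, transcription factors and metabolism. Red points were higher and blue points lower in RPF at an adjusted p under 0.05, grey points were not called, black bars are list medians and the dashed line is the median of all genes (-0.02). Hox genes (median -8.07), proteoglycans (-4.80) and chemokines (-4.08) lie far to the left and spleen patterning factors (5.06) far to the right.

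Among surface receptors, RPF had more mRNA for receptors of thrombin (F2r), nucleotides (P2ry14, P2ry6), angiotensin (Agtr1a) and endothelin (Ednra), and FRC had more for receptors of leptin (Lepr), sphingosine phosphate (S1pr3) and neuropeptides (Adcyap1r1, Npy1r). Of 59 tested receptors of the list of hormone, lipid and transmitter G protein-coupled receptors (GPCRs), 19 were higher and 13 lower in RPF, with a median log2 fold change of 0.34. F2r (ENSMUSG00000048376, chromosome 13, 95601803 to 95618487) encodes PAR1, the thrombin receptor. It stood at 799, 833 and 780.2 CPM in the RPF libraries and at 24.6, 19.1 and 26.2 CPM in the FRC libraries. Every RPF library was far above every FRC library, and the log2 fold change was 5.11 (SE 0.15, edgeR adjusted p = 1.41e-07). P2ry14, a receptor for UDP-sugars, was at 497, 638 and 499.7 CPM in RPF and at 15.97, 15.1 and 8.50 CPM in FRC. Its groups did not overlap either, with means 41.3-fold apart (edgeR adjusted p = 3.59e-06). The nucleotide receptor P2ry6 was at 99.9 ± 14.2 and 0.597 ± 1.01 CPM. Agtr1a, an angiotensin II receptor, was at 301 ± 33.7 CPM in RPF and 50.5 ± 8.26 CPM in FRC, Ednra, an endothelin receptor, at 130.3 ± 21.7 and 35.0 ± 6.47 CPM, and the thromboxane receptor Tbxa2r at 50.7 ± 16.9 and 3.81 ± 1.505 CPM. The adrenergic receptor Adra1b was at 36.2 ± 7.61 and 5.15 ± 1.19 CPM. Adra2b (ENSMUSG00000058620, chromosome 2, 127363208 to 127367221), another adrenergic receptor, was at 25.7, 18.8 and 41.7 CPM in RPF and had 0 counts in all FRC libraries. With the FRC group set to a floor of 3 counts it was at least 854-fold higher in RPF (edgeR adjusted p = 0.00175). No count of it was found in FRC at this depth. Pth1r, the parathyroid hormone receptor, was at 186 ± 5.93 CPM in RPF and 31.8 ± 10.9 CPM in FRC.

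Several of the GPCRs that were lower in RPF were close to absent there. S1pr3, a receptor for sphingosine 1-phosphate, was at 4.34, 0.533 and 0.232 CPM in RPF and at 854, 1225 and 1016 CPM in FRC (edgeR adjusted p = 0.00217). Most of the little signal in RPF came from RPF replicate 1. Adcyap1r1, a receptor for the neuropeptide PACAP, was at 0.825 ± 1.18 CPM in RPF and 337 ± 67.6 CPM in FRC, and Npy1r, a neuropeptide Y receptor, at 0.718 ± 0.917 and 162 ± 30.6 CPM. The muscarinic receptor Chrm3 and the leukotriene receptor Cysltr1 were at 30.7 ± 13.8 and 27.1 ± 1.27 CPM in FRC and at 0.0132 ± 0.0228 and 0.0137 ± 0.0119 CPM in RPF. Hrh2, a histamine receptor, had 0 counts in RPF and was at 11.9 ± 4.20 CPM in FRC, at least 501-fold lower in RPF (edgeR adjusted p = 0.00229). Lpar1, a receptor for lysophosphatidic acid, was at 284 ± 81.0 CPM in RPF and 239 ± 13.8 CPM in FRC and was not called (edgeR adjusted p = 0.388). Of 49 tested adhesion and orphan GPCRs, 14 were higher and 7 lower in RPF. Adgre5, which encodes CD97, was at 444 ± 65.8 and 55.2 ± 10.1 CPM, the orphan receptor Gprc5c at 285 ± 22.9 and 19.9 ± 10.8 CPM and Gpr182, an atypical receptor that takes up chemokines, at 61.8 ± 12.9 and 1.90 ± 1.68 CPM. Gpr37 was at 14.2 ± 3.39 CPM in RPF and had 0 counts in FRC, at least 462-fold higher in RPF (edgeR adjusted p = 0.012). Gpr171 was at 33.3 ± 15.1 CPM in RPF and had 1 count in FRC, a ratio of 3400 whose exact counting interval at 95% was 610.0 to 134000. Gpr176 and Adgrd1 were lower in RPF, at 6.77 ± 1.39 against 66.8 ± 28.6 CPM and at 4.72 ± 1.47 against 31.4 ± 12.8 CPM.

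Receptor tyrosine kinases split within families. Of 34 tested, 10 were higher and 12 lower in RPF (median 0.02). The collagen receptors of the discoidin domain family were opposed. Ddr1 was at 404, 397 and 449 CPM in RPF and at 76.9, 77.8 and 64.6 CPM in FRC, with a log2 fold change of 2.51 (SE 0.14, edgeR adjusted p = 4.54e-06). Ddr2 was at 167, 169.6 and 200.4 CPM in RPF and at 1243, 1388 and 1600 CPM in FRC, with a log2 fold change of -2.98 (SE 0.15, edgeR adjusted p = 2.44e-06). Per kilobase of transcript, Ddr1 stood above Ddr2 in RPF (182 against 99.4 CPM per kb) and far under it in FRC (32.0 against 783). Of the FGF receptors, Fgfr4 was at 275 ± 26.1 CPM in RPF and 5.79 ± 2.10 CPM in FRC, and Fgfr3 at 164 ± 29.6 and 2.38 ± 0.999 CPM. Pdgfrb, the PDGF receptor of stromal and mural cells, was at 942 ± 27.7 CPM in RPF and 515 ± 38.6 CPM in FRC (edgeR adjusted p = 0.000145). FRC had more mRNA for Egfr (531 ± 93.2 against 95.3 ± 10.4 CPM in RPF) and Igf1r (60.04 ± 6.87 against 9.06 ± 3.92 CPM). The neurotrophin receptor Ntrk2 was at 489 ± 97.9 CPM in FRC and 12.5 ± 8.14 CPM in RPF.

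Cytokine receptors leaned to FRC: of 38 tested interleukin, interferon and haematopoietin receptors, 5 were higher and 17 lower in RPF (median -1.02). Lepr, the leptin receptor, was at 314, 467 and 268 CPM in RPF and at 1912, 1434 and 2234 CPM in FRC, with no overlap (log2 fold change -2.41, SE 0.30, edgeR adjusted p = 0.000371). Il11ra1 was at 124 ± 34.2 and 726 ± 53.4 CPM, the IL-1 receptor Il1r1 at 228 ± 28.0 and 586 ± 55.8 CPM, and Il17ra at 32.2 ± 8.72 and 195 ± 37.7 CPM. Prlr, the prolactin receptor, had 0 counts in RPF and was at 11.3 ± 8.08 CPM in FRC, at least 466-fold lower in RPF (edgeR adjusted p = 0.00531). The receptor subunit Il10rb was higher in RPF, at 136 ± 17.1 against 63.2 ± 8.85 CPM. The erythropoietin receptor Epor was at 7.29 ± 3.16 CPM in RPF and had 0 counts in FRC. Erythroid markers summed to between 392 and 1020 CPM in RPF and between 1.28 and 99.4 CPM in FRC, and their part in the Epor level was not tested. Il2rg, the common chain of lymphocyte cytokine receptors, was at 17.4 ± 4.29 CPM in RPF and 2.11 ± 1.09 CPM in FRC. Among 24 TNF receptors 4 were higher (2 to 4) and 5 lower in RPF, or 6 and 5 with upper quartile scaling. Tnfrsf21, which encodes DR6, was at 182 ± 11.5 CPM in RPF and 19.9 ± 2.25 CPM in FRC, and Tnfrsf12a, the TWEAK receptor, at 15.04 ± 9.63 and 169.5 ± 17.8 CPM. Of 14 TGF-beta and BMP receptor genes 3 were higher and 2 lower, or 35.7% called against 25.9% over all genes. The co-receptor Eng, endoglin, was at 557 ± 43.2 and 172 ± 21.0 CPM and the activin receptor Acvr2a at 42.1 ± 7.72 and 116 ± 37.1 CPM. Ltbr, the lymphotoxin receptor through which lymphoid stroma is organised, was at 162 ± 8.45 and 123 ± 22.6 CPM and was not called (edgeR adjusted p = 0.0774).

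Wnt and Notch receptors differed by member. Fzd1 was at 666 ± 46.1 CPM in RPF and 110.3 ± 26.8 CPM in FRC, while Fzd4 was at 28.5 ± 4.51 and 79.3 ± 16.1 CPM and Fzd2 at 3.65 ± 0.491 and 17.3 ± 2.26 CPM. Fzd10 had 0 counts in RPF and was at 10.8 ± 1.59 CPM in FRC. Lgr6, a receptor for R-spondins, was at 85.0, 81.3 and 57.9 CPM in RPF and at 0.0607, 0.0683 and 0 CPM in FRC, where 4 counts were found in all (edgeR adjusted p = 4.82e-06). In all, 4 of 16 tested genes of the Wnt receptor list were higher in RPF and 5 lower (3 to 5). Of 13 Notch pathway genes, 4 were higher in RPF and 1 lower. Notch1 and Notch2 were opposed: Notch1 was at 717 ± 88.3 CPM in RPF and 288 ± 129 CPM in FRC (edgeR adjusted p = 0.0134), and Notch2 at 192 ± 9.24 and 524 ± 33.5 CPM (edgeR adjusted p = 7.05e-05). The ligand Dll1, which in the spleen supports marginal zone B cells, was at 274 ± 7.42 CPM in RPF and 4.76 ± 4.14 CPM in FRC, and the Notch target Hes1 at 169.6 ± 17.4 and 50.2 ± 15.4 CPM.

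Of 22 integrin genes 6 were higher and 5 lower (3 to 4) in RPF. Itga1, the collagen and laminin receptor subunit, was at 1078, 1132 and 1120 CPM in RPF and at 157, 213 and 99.0 CPM in FRC (log2 fold change 2.83, SE 0.25, edgeR adjusted p = 5.7e-05). Its partner Itgb1 was at 1330 ± 125 and 718 ± 83.1 CPM. Itga8, the main receptor subunit for nephronectin, was at 238 ± 16.4 CPM in RPF and 48.7 ± 12.9 CPM in FRC. The fibronectin receptor subunit Itga5 was at 45.2 ± 13.04 and 218 ± 63.6 CPM and Itgb5 at 75.9 ± 3.21 and 232 ± 28.9 CPM. Among 66 cadherins and protocadherins 7 were higher (4 to 7) and 13 lower (median -0.92), 30.3% called, close to the 25.9% over all genes. Pcdh12 was at 408, 370.5 and 376 CPM in RPF and at 0.212, 0.887 and 0.239 CPM in FRC (edgeR adjusted p = 2.43e-06), and Pcdh18 at 1145 ± 41.6 and 131 ± 51.8 CPM. Pcdh19, Cdh13 and Cdh2 were at 144 ± 16.8, 78.6 ± 31.6 and 65.1 ± 12.5 CPM in FRC and at 1.01 ± 1.61, 0.0460 ± 0.0346 and 4.79 ± 2.85 CPM in RPF. Of 43 leukocyte and stromal adhesion molecules 10 were higher and 12 lower, with Pdpn and Vcam1 of the sort among the lower. Cadm4, a nectin-like adhesion molecule, was at 96.3, 79.9 and 110.5 CPM in RPF and at 0.121, 0.0683 and 0.119 CPM in FRC, 10 counts in all there (edgeR adjusted p = 1.41e-07). Icam1, a ligand of leukocyte integrins, was at 226 ± 21.2 CPM in RPF and 1670 ± 265 CPM in FRC. Cd34, a sialomucin of adventitial and vascular cells, was at 3.26, 5.67 and 0.0992 CPM in RPF and at 530.2, 374 and 483 CPM in FRC (edgeR adjusted p = 0.00485).

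Guidance genes were called in equal number, 13 of 56 in each direction, but by different members. Sema5a was at 638 ± 121 CPM in RPF and 86.5 ± 22.3 CPM in FRC, Sema3g at 46.8 ± 6.76 and 0.0341 ± 0.0591 CPM, and Ephb4, the receptor of the arterial ligand ephrin-B2, at 226 ± 6.78 and 62.6 ± 3.84 CPM. Nrp1, a co-receptor of VEGF and semaphorins, was at 153, 122 and 149 CPM in RPF and at 1186, 1085 and 1282 CPM in FRC (edgeR adjusted p = 1.79e-05). The guidance ligand Slit3 was at 213 ± 24.7 and 937 ± 4.29 CPM and Sema3b at 1.13 ± 1.01 and 213 ± 13.2 CPM. The ephrin receptor Epha7 had 0 counts in RPF and was at 6.89, 21.8 and 8.59 CPM in FRC, at least 513-fold lower in RPF (edgeR adjusted p = 0.0206), a call that was lost in the fits without FRC replicate 2 and without each RPF library (at most 0.0552). Of 29 scavenger and pattern recognition receptors 5 were higher (3 to 4) and 9 lower in RPF. Cd36, which binds thrombospondin, oxidised lipid and dying cells, was at 1010, 1075 and 732 CPM in RPF and at 3.43, 0.785 and 4.15 CPM in FRC, 337-fold higher by mean (log2 fold change 8.39, SE 0.57, edgeR adjusted p = 1.11e-05). FRC had more mRNA for Scara5, a ferritin receptor (2432 ± 154 against 68.7 ± 15.99 CPM in RPF), for Cd14, the co-receptor for endotoxin (275 ± 17.5 against 3.05 ± 0.867 CPM), and for Scara3 (677 ± 95.4 against 8.13 ± 7.82 CPM). Clec1a, a C-type lectin, was at 19.8, 32.2 and 21.1 CPM in FRC with 1 count in RPF (edgeR adjusted p = 0.000181). Lrp1, an endocytic receptor for proteases and matrix, had the highest level per kilobase of all the surface genes listed in both cell types. It was at 2678 ± 609 CPM in RPF and 6450 ± 939.8 CPM in FRC. Ly6e came next in RPF, at 2525 ± 421 against 1244 ± 223 CPM.

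**Figure D2:**
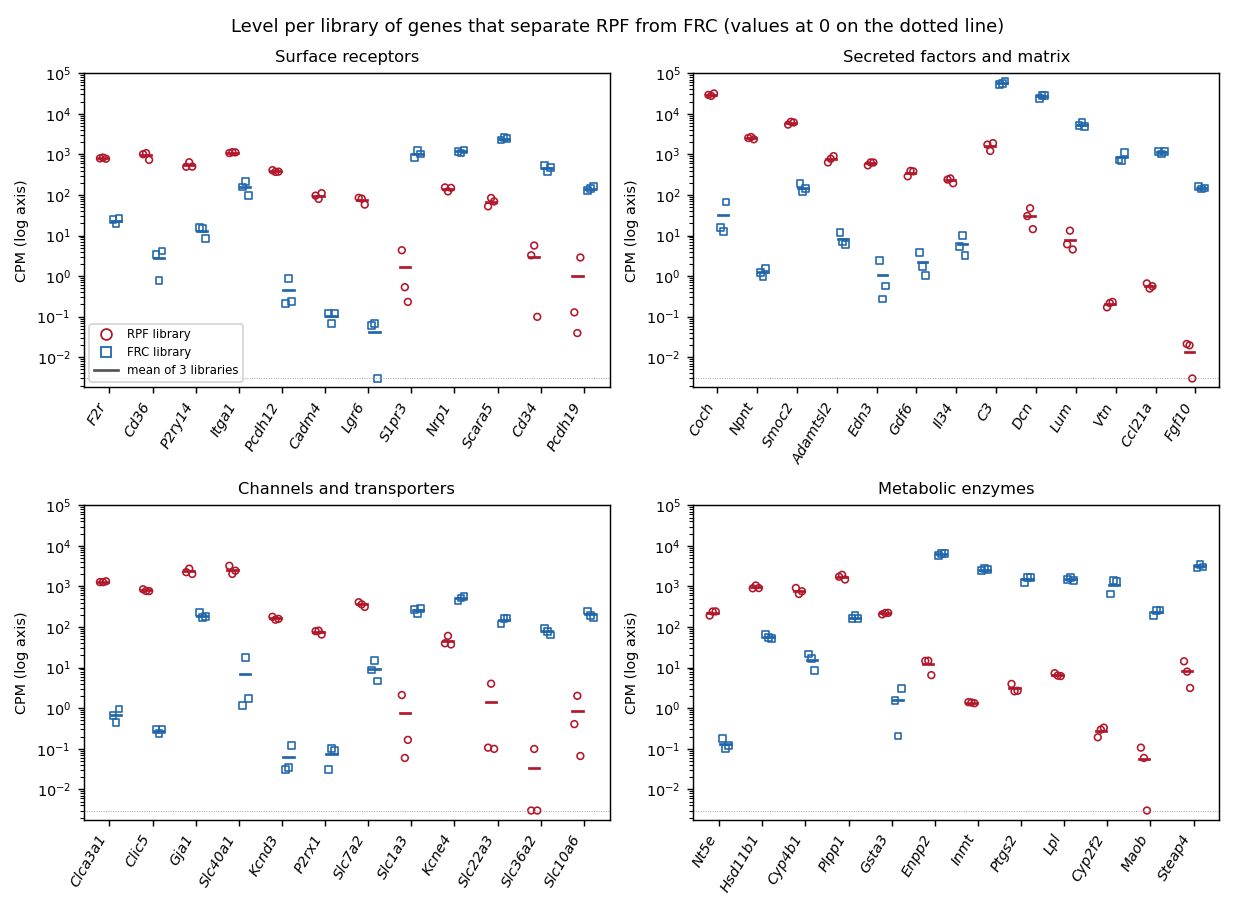
Level of selected genes in each library, in CPM on a log axis. Red circles are the 3 RPF and blue squares the 3 FRC libraries, bars are means, and values of 0 are drawn on the dotted line. For each of these genes the libraries of the groups do not overlap, as for 21.5% (higher) and 23.1% (lower) of all genes tested. The genes to the left in a panel are higher in RPF (Coch 29560 ± 2023 against 31.8 ± 30.4 CPM) while those to the right are lower (Dcn 30.6 ± 16.4 against 26900 ± 2397 CPM).

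Secreted factors held the most abundant RNA of both cell types, and most of those that differed were lower in RPF. Coch (ENSMUSG00000020953, chromosome 12, 51593341 to 51605771), which encodes cochlin, an extracellular matrix protein best known from the inner ear and from conduits of lymphoid organs, was the most abundant gene of RPF, with 3.51% of all counts. It stood at 29280, 27690 and 31700 CPM in the RPF libraries and at 15.9, 12.7 and 66.8 CPM in the FRC libraries. FRC replicate 3 was the highest of FRC and still far under every RPF library. The log2 fold change was 9.86 (SE 0.77, edgeR adjusted p = 2.32e-05), and 11.0 without FRC replicate 3. Its promoter is printed here because no other gene took as large a share of the RPF libraries. The window is the 250 bases before the start in RefSeq's table for build GRCm38.p6, plus strand, chr12:51593091-51593340, with the GC boxes in capitals.
Coch: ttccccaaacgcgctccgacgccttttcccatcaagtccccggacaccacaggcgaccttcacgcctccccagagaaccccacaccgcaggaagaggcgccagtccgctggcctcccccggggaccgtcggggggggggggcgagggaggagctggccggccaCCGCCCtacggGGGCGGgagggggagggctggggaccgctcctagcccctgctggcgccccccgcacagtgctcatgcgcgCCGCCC
The 3 GC boxes, GGGCGG or its complement, start 87, 76 and 6 bases before the gene.

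Basement membrane genes divided by protein family. Of 21 tested, 8 were higher and 7 lower in RPF. The 7 lower genes encode laminin chains, and the 8 higher ones are Npnt, Smoc2, Nid1, Nid2, Agrn, Egflam, Frem1 and Fras1. Npnt (ENSMUSG00000040998, chromosome 3, 132881745 to 132950291), which encodes nephronectin, was at 2532, 2675 and 2355 CPM in RPF and at 1.21, 0.990 and 1.58 CPM in FRC, 2000-fold higher by mean (log2 fold change 10.96, SE 0.25, edgeR adjusted p = 6.65e-08). Every RPF library stood far above every FRC library. Smoc2, a calcium-binding matricellular protein, was at 5965 ± 486 and 151 ± 37.0 CPM, the nidogen Nid1 at 1299 ± 188 and 565 ± 92.7 CPM, and Agrn, which encodes agrin, at 232 ± 29.1 and 79.9 ± 10.7 CPM. Egflam and Frem1 were at 322 ± 40.0 and 173 ± 14.6 CPM in RPF and at 38.2 ± 31.8 and 1.08 ± 1.69 CPM in FRC. The laminin genes Lamc1 and Lamb1 were at 88.8 ± 9.66 and 67.9 ± 7.65 CPM in RPF and at 504 ± 54.9 and 441 ± 63.6 CPM in FRC, and Lama4 at 17.0 ± 13.1 and 376 ± 31.2 CPM. Lamc3 had 0 counts in RPF and was at 35.6, 9.83 and 0.507 CPM in FRC, with a wide spread. Its edgeR adjusted p was 0.0487, and its call was lost without any 1 library other than FRC replicate 3 (at most 0.111). Hspg2, which encodes perlecan, was at 1254 ± 186 and 1229 ± 211 CPM and was not called (edgeR adjusted p = 0.935). The promoter window of Npnt is shown beside that of Coch because both genes mark RPF and both windows hold 3 GC boxes, in capitals (minus strand, chr3:132950292-132950541).
Npnt: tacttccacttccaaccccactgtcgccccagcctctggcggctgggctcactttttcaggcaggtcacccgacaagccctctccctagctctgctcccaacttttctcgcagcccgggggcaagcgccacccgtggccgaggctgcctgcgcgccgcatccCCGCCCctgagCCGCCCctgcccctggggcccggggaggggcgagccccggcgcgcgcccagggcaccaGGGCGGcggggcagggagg

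Genes of the main fibrillar and beaded-filament collagens were lower in RPF. Of 32 tested collagens 4 were higher and 15 lower in RPF (median -1.67). Col6a1 was at 81.9, 110.0 and 99.6 CPM in RPF and at 4254, 4658 and 5332 CPM in FRC, 48.9-fold lower by mean (log2 fold change -5.61, SE 0.19, edgeR adjusted p = 4.13e-07). Its partner chain Col6a2 was at 139 ± 25.7 and 2303 ± 195 CPM. The fibrillar collagen genes Col3a1, Col1a2 and Col1a1 were at 1636 ± 391, 1855 ± 73.2 and 694 ± 64.3 CPM in RPF and at 11190 ± 693, 6208 ± 139 and 3713 ± 261 CPM in FRC. Higher in RPF were Col14a1, a fibril-associated collagen, at 2805 ± 129 against 605 ± 191 CPM, Col8a2 at 340.0 ± 66.0 CPM against 4.61, 0.239 and 2.03 CPM in the FRC libraries, Col18a1 at 387 ± 31.1 against 188 ± 16.6 CPM and Col7a1 at 106 ± 28.8 against 6.26 ± 6.63 CPM.

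Proteoglycans showed a wider gap: 12 of 17 were lower in RPF and 1 higher (median -4.80). Dcn (ENSMUSG00000019929, chromosome 10, 97479609 to 97518143), which encodes decorin, a small leucine-rich proteoglycan that binds collagen fibrils, was at 30.2, 47.1 and 14.4 CPM in RPF and at 24180, 28710 and 27810 CPM in FRC. All FRC libraries lay far above all RPF libraries, and the log2 fold change was -9.78 (SE 0.52, edgeR adjusted p = 3.4e-06). Lum, the related lumican, was at 7.94 ± 4.62 and 5418 ± 626 CPM, Ogn at 8.66 ± 2.96 and 486 ± 148 CPM and Fmod at 8.801 ± 4.22 and 246 ± 51.3 CPM. The single gene higher in RPF was Bgn, biglycan, at 4624 ± 134 against 2871 ± 153 CPM (edgeR adjusted p = 0.000914, and 0.204 in the test against a 1.5-fold change).

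Of 53 elastic fibre and matricellular genes 7 were higher and 29 lower. Emilin1, Fbln5 and Tnxb, glycoproteins of elastic fibres and their surroundings, were at 2764 ± 146, 1593 ± 201 and 1325 ± 194 CPM in RPF and at 528 ± 90.4, 364 ± 66.5 and 430.2 ± 65.5 CPM in FRC. In the other direction, Thbs1, thrombospondin 1, was at 33.5, 29.0 and 34.2 CPM in RPF and at 2825, 2825 and 2531 CPM in FRC (edgeR adjusted p = 4.13e-07). Postn, periostin, was at 11.3 ± 6.79 and 1635 ± 76.3 CPM, Fbln2 at 65.3 ± 13.9 and 1089 ± 124 CPM, and Vtn, vitronectin, at 0.170, 0.217 and 0.232 CPM in RPF and 727, 705 and 1110 CPM in FRC. Htra1, a secreted serine protease, was at 433 ± 12.5 and 1949 ± 242 CPM. Sparc and Fn1 were not called, at 3893 ± 352 and 3939 ± 308 CPM and at 927 ± 114 and 1094 ± 86.8 CPM. Of 38 matrix proteases and inhibitors 7 were higher and 15 lower. Adamtsl2, an ADAMTS-like protein that binds microfibrils, was at 634, 777 and 906 CPM in RPF and at 12.1, 6.89 and 6.05 CPM in FRC (log2 fold change 6.53, SE 0.38, edgeR adjusted p = 4.68e-06). The protease inhibitor Timp3 was at 902 ± 51.1 and 137 ± 23.9 CPM. FRC had more mRNA for the metalloproteinases Mmp2 (2115 ± 222 against 362 ± 66.4 CPM in RPF), Mmp3 (1467 ± 526 against 49.8 ± 22.2 CPM) and Mmp14 (1075 ± 136 against 339 ± 37.4 CPM).

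Chemokine genes were mostly lower in RPF. Of 27 tested 17 were lower and 1 higher in RPF (median -4.08). Ccl21a, a ligand of CCR7 on T cells and dendritic cells, was at 0.660, 0.494 and 0.562 CPM in RPF and at 1191, 1021 and 1191 CPM in FRC (edgeR adjusted p = 3.73e-06); the gene has near-identical copies, so its counts are uncertain. Ccl19, the other CCR7 ligand, was at 18.4 ± 7.21 and 423 ± 54.9 CPM, and Cxcl13, which attracts B cells, at 83.4, 78.5 and 54.2 CPM in RPF and 1088, 1065 and 1352 CPM in FRC. For each of these 3 genes every FRC library was above every RPF library, as for 23.1% of all genes tested. The neutrophil attractant Cxcl1 was at 51.1 ± 29.2 CPM in RPF and 5204 ± 518 CPM in FRC. The monocyte attractants Ccl2 and Ccl7 were at 1372 ± 177 and 1901 ± 147 CPM in FRC and at 20.2 ± 9.78 and 1.53 ± 0.987 CPM in RPF. Eotaxin, Ccl11, was at 0.217 ± 0.103 CPM in RPF and 573 ± 40.1 CPM in FRC. Cxcl16, a membrane-bound chemokine and scavenger receptor, was at 73.2 ± 8.02 and 530.0 ± 6.78 CPM. Ccl24, which also attracts eosinophils, was the gene higher in RPF, at 14.01 ± 3.27 CPM and 0 counts in FRC (edgeR adjusted p = 6.68e-05). Cxcl12, which holds haematopoietic cells in their niches, was the second most abundant gene of RPF and was not called: it was at 18800 ± 604 CPM in RPF and at 23570 ± 1280 CPM in FRC (edgeR adjusted p = 0.0527). The groups did not overlap, and the log2 fold change was -0.33 (SE 0.11).

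Of 37 cytokines and TNF ligands 3 were higher in RPF, Csf1, Il34 and Kitl, all ligands of receptor tyrosine kinases on haematopoietic cells, and 14 were lower. Csf1, on which tissue macrophages depend, was at 1510, 1243 and 1459 CPM in RPF and at 339, 537 and 647 CPM in FRC (log2 fold change 1.47, SE 0.22, edgeR adjusted p = 0.0012). Il34, the other ligand of the CSF1 receptor, was at 239.5, 255 and 194 CPM in RPF and at 5.31, 9.93 and 3.22 CPM in FRC (edgeR adjusted p = 4.56e-05). Kitl, stem cell factor, was at 262 ± 69.7 and 49.5 ± 12.8 CPM. For all 3 of these genes every RPF library was above every FRC library, as for 21.5% of all genes tested. Il7, a survival factor of T cells, was at 30.0 ± 12.1 CPM in RPF and 160.3 ± 6.48 CPM in FRC, Tnfsf13b, the B cell factor BAFF, at 29.9 ± 3.70 and 359 ± 34.7 CPM, and Tnfsf11, RANKL, at 67.6 ± 27.4 CPM in FRC with 3 counts in RPF. Il33 was at 26.5 ± 16.7 and 828 ± 105 CPM. Il6 and Lif were at 3.20 ± 1.48 and 23.2 ± 6.71 CPM in RPF and at 1101 ± 112 and 516 ± 130.3 CPM in FRC. Csf3, the granulocyte growth factor, had 0 counts in RPF and was at 24.4 ± 11.2 CPM in FRC, at least 1030-fold lower in RPF (edgeR adjusted p = 0.000199). Gas6, a bridge between dying cells and receptors of the TAM family, was at 949 ± 149 and 5551 ± 875 CPM, while its receptor gene Mertk was higher in RPF, at 84.0 ± 20.4 against 24.9 ± 5.32 CPM.

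In the lists of growth factors and their antagonists more genes were lower in RPF than higher. Of 33 TGF-beta and BMP ligands and antagonists 6 were higher and 16 lower in RPF (median -1.84). Gdf6 was at 354 ± 56.8 CPM in RPF and 2.18 ± 1.44 CPM in FRC, Bmp6, which signals iron load to the liver, at 167 ± 30.4 and 1.58 ± 1.40 CPM, and Bmp4 at 104 ± 22.9 and 9.51 ± 8.68 CPM. All 3 of these ligands were higher in RPF, and so was Tgfb1, at 67.5 ± 3.86 against 8.32 ± 2.13 CPM. The antagonists Chrdl1, Fst and Sostdc1 were at 571 ± 73.9, 184 ± 33.7 and 107 ± 33.7 CPM in FRC and at 0.418 ± 0.563, 0.0410 ± 0.0356 and 0.170 ± 0.295 CPM in RPF. Of 35 ligands of receptor tyrosine kinases 4 were higher and 16 lower (median -1.76). Fgf1 was at 357 ± 76.8 and 14.1 ± 9.85 CPM, Angpt1 at 80.0 ± 19.9 and 11.2 ± 4.26 CPM, Pdgfa at 64.2 ± 2.09 and 12.2 ± 2.64 CPM and Nrg2 at 39.2 ± 9.99 and 0.540 ± 0.470 CPM. Fgf10 (ENSMUSG00000021732, chromosome 13, 118669791 to 118792115), a mesenchymal growth factor for epithelium, was at 165, 141 and 148 CPM in FRC and had 2 counts in RPF, 9680 times the RPF level with a counting interval at 95% of 2680 to 80000 (edgeR adjusted p = 4.13e-07). Its relative Fgf7 was at 0.169 ± 0.256 CPM in RPF and 118 ± 5.88 CPM in FRC, and Vegfa at 359 ± 26.4 and 849 ± 244 CPM. Of 18 Wnt ligands and secreted regulators 3 were higher and 8 lower: the antagonists Frzb and Sfrp1 were at 763 ± 49.1 and 634 ± 223 CPM in RPF and at 21.3 ± 19.2 and 106 ± 25.9 CPM in FRC, whereas Wnt11 and Rspo1 were at 237 ± 31.8 and 115 ± 16.2 CPM in FRC and 2.58 ± 0.674 and 8.26 ± 4.46 CPM in RPF. Sfrp4, another antagonist, was at 63.5 ± 8.07 CPM in FRC with 3 counts in RPF. In the IGF axis 3 of 14 were higher and 7 lower. Igfbp7 was at 6915 ± 617 and 3822 ± 384 CPM, Igfbp3 at 801 ± 77.9 and 4888 ± 493 CPM, and Igf1 at 77.9 ± 5.69 and 253 ± 7.79 CPM.

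Complement genes were lower in RPF in 11 of 17 and higher in 0 (median -1.90). C3 (ENSMUSG00000024164, chromosome 17, 57203970 to 57228136), the central component of the cascade and the most abundant gene of FRC at 4.56% of counts, was at 1741, 1216 and 1893 CPM in RPF and at 52170, 55980 and 64370 CPM in FRC. The groups were far apart, with a log2 fold change of -5.15 (SE 0.29, edgeR adjusted p = 4.5e-06). Clu, which inhibits the terminal complex, was at 38.0 ± 6.67 and 5100 ± 819 CPM, the protease genes C1s1 and C1ra at 753 ± 59.0 and 408 ± 28.6 CPM in RPF and 2539 ± 255 and 1691 ± 160.2 CPM in FRC, and Serping1, the C1 inhibitor, at 2769 ± 147 and 8291 ± 723 CPM. Cfb was at 34.5 ± 4.16 and 45.3 ± 8.996 CPM and was not called (edgeR adjusted p = 0.167). Among 21 genes of clotting and serine protease control 4 were higher (1 to 3) and 8 lower, F3, tissue factor, being at 8.05 ± 1.36 CPM in RPF and 407 ± 102 CPM in FRC. F7, clotting factor VII, was at 1.66, 5.90 and 7.18 CPM in RPF with 1 count in FRC (edgeR adjusted p = 0.0103). Of 23 hormones and vasoactive peptides 2 were higher and 13 lower. Edn3, endothelin 3, was at 537, 633 and 630.3 CPM in RPF and at 2.40, 0.273 and 0.567 CPM in FRC (edgeR adjusted p = 4.22e-05). Apoe was at 5734 ± 439 and 26120 ± 2756 CPM, the opioid precursor Penk at 2.43 ± 1.79 and 419.5 ± 102 CPM and the vasodilator peptide Adm at 11.0 ± 1.54 and 166 ± 16.8 CPM.

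**Figure D3:**
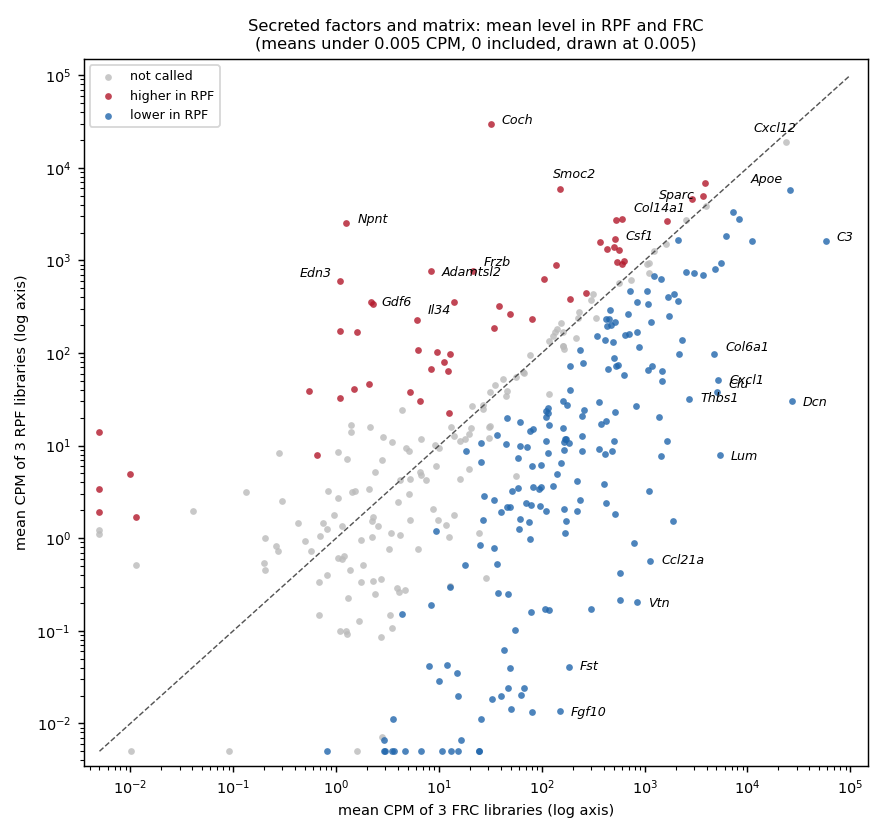
Mean CPM of each tested secreted factor or matrix gene in the 3 FRC libraries (x axis) and the 3 RPF libraries (y axis), both on log axes, with means under 0.005 CPM drawn at 0.005. Red points were higher in RPF (53 genes) and blue points lower (188 genes), grey points were not called and the dashed line marks equal levels. Coch, Npnt and Smoc2 stand far above the line and Dcn, Lum, Vtn and Fgf10 far under it, while Cxcl12 and Sparc lie close to it.

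Among the channel and transporter genes higher in RPF were Clic5, Clca3a1, Gja1 and Slc40a1. Of 23 chloride channel and anoctamin genes 6 were higher in RPF and 5 lower, the latter 3 with upper quartile or RLE scaling and 3 without any 1 library. Clic5 (ENSMUSG00000023959, chromosome 17, 44188572 to 44280168), an intracellular chloride channel family member bound to the actin cortex, was at 849.7, 773 and 768 CPM in RPF and at 0.303, 0.239 and 0.298 CPM in FRC. RPF exceeded FRC 2840-fold by mean (log2 fold change 11.45, SE 0.27, edgeR adjusted p = 6.65e-08). Clca3a1, a secreted regulator of chloride current, was at 1279, 1276 and 1341 CPM in RPF and at 0.668, 0.444 and 0.954 CPM in FRC (edgeR adjusted p = 1.08e-07). Ano1, the calcium-activated chloride channel, was lower in RPF, at 225 ± 31.3 against 764 ± 148 CPM. Of 33 potassium channel genes 3 were higher (1 to 3) and 6 lower, a share called of 27.3%, close to the 25.9% over all genes. Kcnd3, a voltage-gated channel of transient current, was at 179, 152 and 159 CPM in RPF and had 6 counts in FRC (edgeR adjusted p = 1.65e-07), and the accessory subunit Kcne4 was at 45.8 ± 12.8 and 508 ± 62.7 CPM. Of 18 voltage-gated calcium and sodium channel genes 3 were higher and 2 lower, also close to that share at 27.8%. Cacna2d3, a calcium channel subunit, was at 3.85 ± 1.97 CPM in FRC with 1 count in RPF (edgeR adjusted p = 0.00599).

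Of 29 genes of the list of TRP, Piezo, store-operated and acid-sensing channels 7 were higher and 2 lower, or 31.0% called against 25.9% over all genes. The store-operated channel gene Orai1 and its sensor Stim1 were at 80.9 ± 11.4 and 205 ± 23.4 CPM in RPF and at 15.3 ± 6.28 and 94.9 ± 26.9 CPM in FRC. Trpc6, a receptor-operated cation channel, was at 29.1 ± 11.9 CPM in RPF and 0.0227 ± 0.0394 CPM in FRC, and the mechanosensitive channel Piezo1 at 82.2 ± 12.4 and 41.1 ± 6.09 CPM. The calcium pump Atp2a3 was at 689.8 ± 86.1 and 13.1 ± 15.1 CPM. Pkd1, polycystin 1, which pairs with a TRP channel, was lower in RPF by less, at 544, 509.8 and 599 CPM against 988, 748 and 937 CPM in FRC (edgeR adjusted p = 0.0045, and 0.257 in the test against a 1.5-fold change). Of 20 ligand-gated channels 5 were higher and 3 lower. P2rx1, an ATP-gated channel, was at 79.0, 81.4 and 65.3 CPM in RPF with 7 counts in FRC (edgeR adjusted p = 4.5e-06). P2rx2 was at 14.97 ± 2.54 CPM in RPF and had 0 counts in FRC, and Chrna6, a nicotinic receptor subunit, was at 67.6 ± 20.1 CPM with 1 count in FRC, a ratio of 6260 (95% counting interval 1120 to 247000). The GABA receptor subunit Gabrg3 and the glutamate receptor subunit Gria4 were at 30.8 ± 16.1 and 7.77 ± 1.91 CPM in FRC, with 1 and 0 counts in RPF. Gja1, connexin 43, which joins fibroblasts by gap junctions, was at 2251, 2748 and 2031 CPM in RPF and at 224, 171 and 182 CPM in FRC, 12.2-fold higher by mean (log2 fold change 3.61, SE 0.23, edgeR adjusted p = 7.52e-06). The water channel Aqp1 and the pannexin Panx1 were lower in RPF, at 10.6 ± 4.22 against 94.5 ± 49.1 CPM and 27.3 ± 4.65 against 112 ± 39.5 CPM.

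Slc40a1 (ENSMUSG00000025993, chromosome 1, 45908068 to 45926523), which encodes ferroportin, the only known exporter of cellular iron, had the highest level per kilobase of the channels and transporters in RPF. It was at 3226, 2037 and 2446 CPM in RPF and at 1.18, 17.4 and 1.73 CPM in FRC, with FRC replicate 2 above the other FRC libraries. No FRC library came near an RPF library, and the log2 fold change was 8.58 (edgeR adjusted p = 0.000478), or 10.8 without FRC replicate 2. Red pulp macrophages also express Slc40a1. Their 13 markers summed to between 192 and 211 CPM in RPF and between 90.9 and 127 CPM in FRC, but these sums join members that went in opposite directions. Of 12 tested, 4 were higher in RPF (1 to 3) and 1 lower. Cd5l, Cd163, Adgre1 and C1qc had means of 12.85, 11.95, 9.16 and 26.9 CPM in RPF and of 0, 0.0228, 0.153 and 2.46 CPM in FRC. Slc11a1, the lower gene, had means of 15.4 and 37.2 CPM. The part of macrophage RNA in the Slc40a1 level was not tested. Of 71 inorganic ion and metal transporters 9 were higher and 16 lower (10 to 14), or 12 and 12 with upper quartile scaling. In the main fit 35.2% of them were called, against 25.9% over all genes. Slc4a1, the anion exchanger of red cells, was called higher in RPF, at 49.8 ± 27.5 against 0.0114 ± 0.0197 CPM, beside the erythroid sums given with Epor, and the part of erythroid RNA in it was not tested.

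Of 38 amino acid and neurotransmitter transporters 5 were higher in RPF (3 to 6) and 13 lower. Slc7a2, which takes up arginine, was among those higher in RPF, at 361 ± 47.8 CPM against 9.37 ± 5.08 CPM in FRC. Among the lower ones, the glutamine carriers Slc1a5 and Slc38a2 were at 99.5 ± 21.5 and 70.1 ± 11.5 CPM in RPF and at 614 ± 56.2 and 545 ± 44.0 CPM in FRC. Slc1a3, a glutamate transporter, was at 2.11, 0.0592 and 0.165 CPM in RPF and at 275, 219 and 289 CPM in FRC (edgeR adjusted p = 0.000539), and Slc36a2 was at 78.5 ± 15.1 CPM in FRC with 5 counts in RPF. Of 45 carriers of sugars, organic acids and nucleosides 5 were higher and 12 lower. Slco2a1, the prostaglandin transporter, was at 1608 ± 216 CPM in RPF and 242 ± 90.7 CPM in FRC, and the lactate carrier Slc16a1 at 440.2 ± 71.1 and 179 ± 21.8 CPM. Slc43a3, a purine carrier counted in the list of amino acid transporters, was at 525 ± 69.6 and 1256 ± 112 CPM. The inositol carrier Slc5a3 was at 5.75 ± 0.514 and 48.7 ± 2.89 CPM. Slco1c1, a thyroid hormone carrier, was at 17.1 ± 7.16 CPM in FRC with 1 count in RPF. The glucose transporter Slc2a1 was at 149.6 ± 7.68 and 535 ± 93.2 CPM, and Slc22a3, a carrier of monoamines, at 1.41 ± 2.25 and 149 ± 26.6 CPM.

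Transcription factors of the spleen primordium were higher in RPF and Hox genes lower. Of 10 tested spleen patterning factors 8 were higher in RPF and 0 lower, with a median log2 fold change of 5.06. Tlx1 (ENSMUSG00000025215, chromosome 19, 45150680 to 45156943), without which mice form no spleen, was at 371, 419 and 434 CPM in RPF and at 0.0911, 0.0683 and 0.388 CPM in FRC, 18 counts in all there. Its log2 fold change was 11.07 (SE 0.45, edgeR adjusted p = 9.78e-07), or 12.3 without FRC replicate 3. Tcf21 (ENSMUSG00000045680, chromosome 10, 22817281 to 22820174), a basic helix-loop-helix factor of visceral mesenchyme that the spleen also needs, was at 676, 657 and 813 CPM in RPF and at 3.83, 1.40 and 2.86 CPM in FRC (log2 fold change 8.04, SE 0.41, edgeR adjusted p = 2.6e-06). Nkx3-2 was at 68.5 ± 17.0 CPM in RPF with 2 counts in FRC. Nkx2-5 was at 37.9, 30.9 and 49.4 CPM in RPF, also with 2 counts in FRC, 1810 times more in RPF (95% interval for counting error 501 to 15000). Nkx2-3, which shapes spleen and gut vessels, was at 74.4, 96.9 and 157 CPM in RPF and at 9.02, 0 and 1.998 CPM in FRC (edgeR adjusted p = 0.0159). Its groups did not overlap, but the call was lost without FRC replicate 3 (edgeR adjusted p = 0.0534) and with no filter on low counts (0.064), and its log2 fold change was 4.89, or 6.74 without FRC replicate 1. Nr2f2 and Meis1 were higher by less, at 188 ± 12.1 against 80.2 ± 4.18 CPM and 101 ± 20.0 against 40.5 ± 5.68 CPM. Barx1 of the same list had 0 counts in both groups and was not tested. Wt1 belongs to this list but drives the reporter on which the cells were sorted.

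The promoter window of Tlx1 is shown because this factor marks the spleen primordium (plus strand, chr19:45150465-45150714). It ends in front of a RefSeq start 35 bases from that of the deposited table, and capitals mark its CCAAT box.
Tlx1: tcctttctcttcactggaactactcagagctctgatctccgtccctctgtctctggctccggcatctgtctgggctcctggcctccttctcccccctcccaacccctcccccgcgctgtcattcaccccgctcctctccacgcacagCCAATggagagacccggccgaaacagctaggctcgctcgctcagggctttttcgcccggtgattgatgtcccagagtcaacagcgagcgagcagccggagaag

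Hox genes, which keep the position of a cell along the body axis, were lower in RPF in 12 of 19 and higher in 0 (median -8.07). Hoxd8 (ENSMUSG00000027102, chromosome 2, 74704615 to 74707933) was at 22.1, 24.2 and 27.0 CPM in FRC and had 0 counts in all RPF libraries, at least 1040-fold lower in RPF (edgeR adjusted p = 0.00037). Hoxc5, Hoxa7, Hoxd9, Hoxc10, Hoxc9, Hoxd10 and Hoxa3 also had 0 counts in RPF. Of these, Hoxc5 was at 15.9 ± 1.37 CPM in FRC and Hoxd9 at 8.08 ± 0.837 CPM. With 1 count in RPF, Hoxc8, Hoxc6 and Hoxa10 were at 11.1 ± 4.44, 7.88 ± 1.57 and 7.33 ± 3.28 CPM in FRC, and Hoxa2, with 2 counts in RPF, was at 3.17 ± 4.57 CPM (edgeR adjusted p = 0.0471, and 0.143 at most under the alternatives). With each library left out in turn the number of Hox genes lower in RPF was between 8 and 12. Of the 7 Hox genes that were not called 5 belong to the Hoxb cluster, Hoxb7 being at 0.967 ± 0.282 and 1.77 ± 2.30 CPM and Hoxb2 at 1.45 ± 0.384 and 0.519 ± 0.208 CPM.

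Other homeobox and paired factors numbered 8 higher and 14 lower of 55. The related factors Prrx1 and Prrx2 were opposed: Prrx2 was at 92.0 ± 13.5 CPM in RPF and 13.9 ± 0.855 CPM in FRC (edgeR adjusted p = 8.36e-06), and Prrx1 at 21.0 ± 6.32 and 129.7 ± 10.8 CPM (edgeR adjusted p = 0.000511). Meox2, a factor of trunk and limb mesenchyme, was at 195, 74.3 and 72.7 CPM in FRC with 4 counts in RPF, and FRC replicate 1 stood above the other libraries of its group. Lhx8 was at 71.7 ± 12.3 CPM in FRC with 3 counts in RPF. Of 66 forkhead, SOX, T-box, GATA, RUNX and KLF factors 8 were higher and 22 lower. Tbx3 was at 35.9 ± 6.43 and 12.1 ± 1.94 CPM. Tbx18, a factor of mural and body wall mesenchyme, was at 24.7 ± 4.23 CPM in FRC with 2 counts in RPF. Gata6, Foxf1, Tbx15 and Sox9 were at 132 ± 21.1, 89.7 ± 15.3, 87.0 ± 24.9 and 90.5 ± 31.3 CPM in FRC and at 0.661 ± 1.003, 0.968 ± 0.850, 0.0268 ± 0.0300 and 2.42 ± 1.48 CPM in RPF. The haematopoietic factors Gata1 and Klf1 were called higher in RPF, at 8.95 ± 4.30 and 8.88 ± 3.47 CPM against 0.00994 ± 0.0172 and 0.131 ± 0.202 CPM, beside the same erythroid sums, and the part of erythroid RNA was not tested.

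Of 48 basic helix-loop-helix factors 13 were higher and 10 lower. Besides Tcf21, Id4 and Id1, which block partners of this family and respond to BMP signals, were higher in RPF, at 162 ± 23.1 and 87.9 ± 30.4 CPM against 63.3 ± 10.8 and 20.5 ± 5.45 CPM, while Id3 was lower, at 545 ± 44.5 against 1328 ± 102 CPM. The early B cell factors Ebf1, Ebf3 and Ebf2, which also act in mesenchyme, were FRC genes. Ebf1 was at 0.0870 ± 0.0584 and 171 ± 25.5 CPM, Ebf3 was at 33.8 ± 2.23 CPM in FRC with 3 counts in RPF, and Ebf2, at 11.2 ± 7.15 CPM in FRC, had 0 counts in RPF. Tcf23 was at 7.55 ± 3.60 CPM in RPF and had 0 counts in FRC, at least 260.0-fold higher in RPF (edgeR adjusted p = 0.00295). Of 34 nuclear receptors 3 were higher (1 to 3) and 8 lower, or 32.4% called against 25.9% over all genes (median -0.04).

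The largest group of calls among factors was that of stimulus-dependent factors. Of 60 AP-1, EGR, NF-kB, IRF, STAT and C/EBP factors 8 were higher and 32 lower in RPF (median -1.75). Egr1 was at 2295, 1477 and 1393 CPM in RPF and at 14620, 14990 and 17470 CPM in FRC (log2 fold change -3.19, SE 0.20, edgeR adjusted p = 6.93e-06). Fos (ENSMUSG00000021250, chromosome 12, 85473890 to 85477273) was at 2775, 1597 and 1379 CPM in RPF and at 8016, 6838 and 9419 CPM in FRC (log2 fold change -2.08, SE 0.31, edgeR adjusted p = 0.00122). RPF replicate 1 was the highest of RPF for both genes and still lay under every FRC library. Atf3 was at 83.9 ± 49.3 and 4037 ± 704 CPM, the NF-kB inhibitor Nfkbia at 215 ± 86.2 and 2183 ± 204 CPM, Myc at 53.1 ± 20.0 and 1723 ± 183 CPM and the orphan nuclear receptors Nr4a1 and Nr4a3 at 389.9 ± 131 and 8.71 ± 2.62 CPM in RPF and at 4651 ± 909 and 264 ± 57.7 CPM in FRC. Atf4, a factor of the integrated stress response, was at 156 ± 21.1 and 719 ± 29.4 CPM and Stat3 at 802 ± 40.0 and 1558 ± 112 CPM. The list of immediate early and dissociation stress genes, which shares several of these factors, had 15 of 18 members lower in RPF and 1 higher. Its summed level ran from 6300 to 10900 CPM in RPF and from 50400 to 57300 CPM in FRC. Spleens and lymph nodes both went through 40 min of enzyme digestion without cooling, and what handling adds to these genes and to Ptgs2, Il6, Lif and the inflammatory chemokines cannot be told apart from the organ. The 8 factors of this list that were higher in RPF included Irf7 (348 ± 104 against 57.5 ± 35.4 CPM) and Stat2 (128 ± 20.7 against 50.5 ± 14.8 CPM), which carry interferon signals, the AP-1 relative Maf (42.6 ± 9.51 against 9.67 ± 3.69 CPM) and Tcf7 (33.8 ± 8.87 against 6.67 ± 1.30 CPM).

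**Figure D4:**
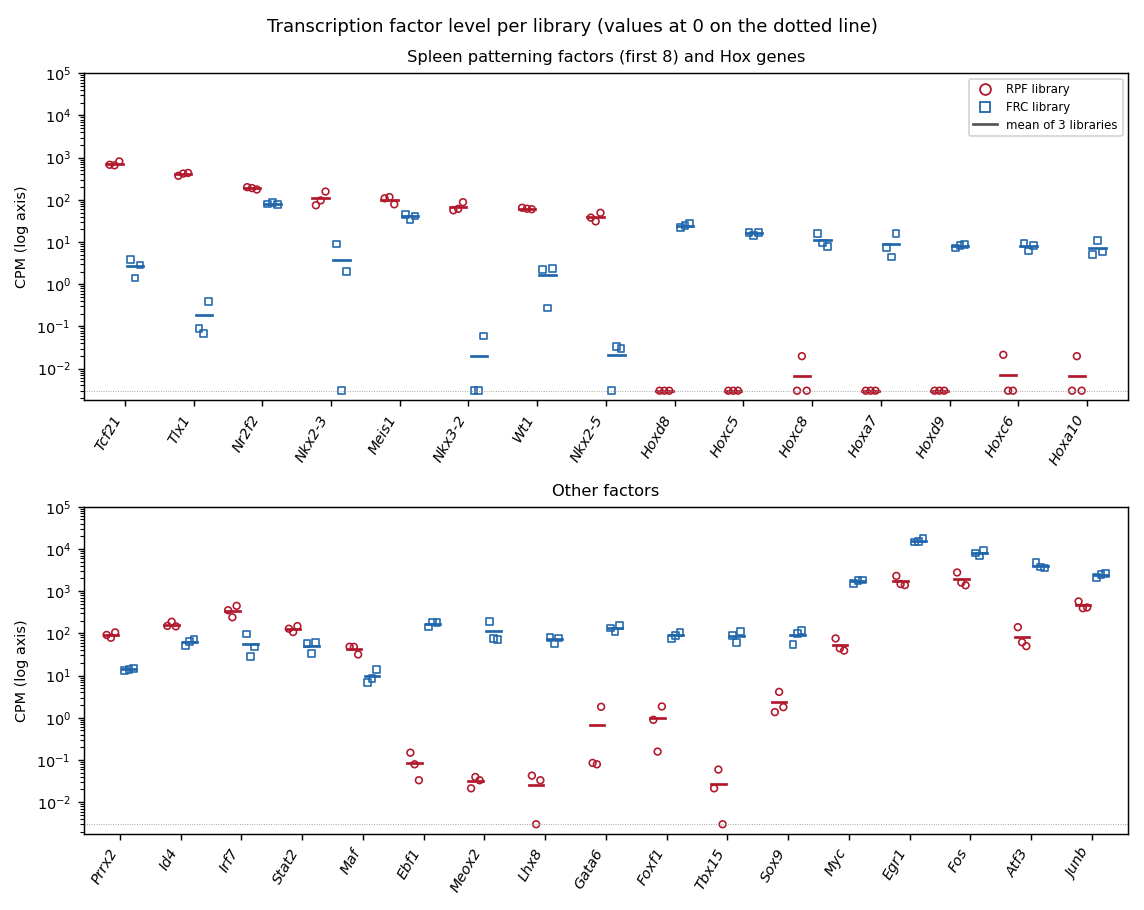
Level of transcription factor genes in each library, in CPM on a log axis. Red circles are the 3 RPF and blue squares the 3 FRC libraries, bars are means and values of 0 are drawn on the dotted line. The upper panel shows 8 spleen patterning factors, each higher in every RPF library than in any FRC library, and 7 Hox genes, all at 0 or 1 count in RPF. In the lower panel Myc, Egr1, Fos, Atf3 and Junb lie higher in FRC than in RPF in every library. Over all genes tested, every RPF library was above every FRC library for 21.5% and under them for 23.1%.

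Promoter windows of genes that differed were described by their letters, with no test. The 250 bases before the start were found in the RefSeq table for 10218 of 13109 tested protein-coding genes. The TATA box TATAAA, searched on both strands as were all motifs, was present in 6.39% of all windows, in 117 of the 1170 windows of genes lower in RPF beyond 2-fold and in 52 of the 960 windows (5.42%) of genes higher beyond 2-fold. The half-site TGACGT of the cyclic AMP response element was present in 9.86% of all windows, 10.3% of the lower and 5.62% of the higher genes. The NKX motif TNAAGTG was present in 7.46%, 7.18% and 8.23%, the GC box GGGCGG in 59.3%, 61.2% and 58.8%, and the AP-1 site TGACTCA in 3.00%, 4.02% and 4.17% of these windows. The windows of Fos and Inmt are shown as those of genes lower in RPF that hold the TATA box. In Fos (plus strand, chr12:85473640-85473889) capitals mark a GC box, the TGACGT half-site and the TATA box, which starts 33 bases before the gene. In Inmt (minus strand, chr6:55174991-55175240, against a RefSeq start 53 bases inside the deposited gene model) capitals mark TATA boxes that start 80 and 69 bases before that start.
Fos: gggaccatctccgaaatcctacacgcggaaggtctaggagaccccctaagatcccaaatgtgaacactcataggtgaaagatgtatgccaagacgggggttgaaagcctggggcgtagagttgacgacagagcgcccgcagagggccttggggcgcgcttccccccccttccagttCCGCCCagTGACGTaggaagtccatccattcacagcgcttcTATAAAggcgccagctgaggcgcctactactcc
Inmt: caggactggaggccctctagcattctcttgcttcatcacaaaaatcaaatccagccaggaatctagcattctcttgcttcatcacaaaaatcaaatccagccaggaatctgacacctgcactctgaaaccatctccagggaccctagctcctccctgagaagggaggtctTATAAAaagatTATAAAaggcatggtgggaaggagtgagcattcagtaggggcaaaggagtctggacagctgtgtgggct

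Inmt, Enpp2, Ptgs2 and Lpl were metabolic genes with high levels in FRC and low levels in RPF, and Nt5e, Hsd11b1 and Plpp1 were high in RPF. Nuclear genes of the respiratory chain were seldom called. Inmt (ENSMUSG00000003477, chromosome 6, 55170626 to 55175043), a methyltransferase of indolethylamines known from stroma of several organs, had the smallest p of the metabolic genes. It was at 1.41, 1.38 and 1.32 CPM in RPF and at 2472, 2723 and 2639 CPM in FRC, 1910-fold lower by mean (log2 fold change -10.89, SE 0.21, edgeR adjusted p = 3.74e-08). The libraries of each group were close to each other. In all, 19 of 49 genes of amino acid, single-carbon and methylation enzymes were lower in RPF (11 to 16) and 4 higher (1 to 4). Mat2a, which makes the methyl donor S-adenosylmethionine, was at 219.6 ± 43.1 and 1153 ± 94.96 CPM, Nnmt at 37.3 ± 4.05 and 114 ± 3.56 CPM, Glul, glutamine synthetase, at 36.8 ± 1.103 and 302 ± 4.86 CPM, and Odc1, the first enzyme of polyamine synthesis, at 42.8 ± 6.24 and 310.3 ± 92.5 CPM. Maob, a monoamine oxidase, was at 235 ± 38.3 CPM in FRC with 8 counts in RPF (edgeR adjusted p = 1.47e-06). Ass1, an enzyme of arginine synthesis, was higher in RPF at low levels, 4.85 ± 1.17 against 0.988 ± 0.146 CPM (edgeR adjusted p = 0.0166), a call lost without RPF replicate 3 and with no filter on low counts (0.0614).

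Enzymes that act on extracellular purines were called in both directions. Nt5e (ENSMUSG00000032420, chromosome 9, 88327197 to 88372092), which encodes CD73 and makes adenosine from AMP, was at 192, 241 and 243 CPM in RPF and at 0.182, 0.102 and 0.119 CPM in FRC, 13 counts in all there (log2 fold change 10.66, SE 0.26, edgeR adjusted p = 6.65e-08). Entpd2, which degrades ATP to ADP, was at 21.8 ± 2.23 CPM in RPF and 264 ± 36.4 CPM in FRC (edgeR adjusted p = 4.5e-06), and Alpl, alkaline phosphatase, at 7.73 ± 3.70 and 93.3 ± 30.4 CPM. Adk, which removes adenosine inside the cell, was at 167 ± 30.5 and 62.2 ± 0.272 CPM and Enpp1 at 85.5 ± 33.1 and 9.07 ± 2.55 CPM. Bst1, an ectoenzyme that consumes NAD and a marker of T zone reticular cells, was at 38.4, 29.5 and 55.7 CPM in FRC and had 0 counts in RPF, at least 1780-fold lower (edgeR adjusted p = 6.5e-05). Of the 29 genes of this list 3 were higher and 8 lower in RPF.

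Of 31 enzymes of prostaglandins, leukotrienes and lysophospholipids 6 were higher (3 to 5) and 11 lower in RPF. Enpp2, autotaxin, which makes lysophosphatidic acid, was at 14.7, 14.8 and 6.52 CPM in RPF and at 5812, 6534 and 6464 CPM in FRC, 523-fold lower by mean (edgeR adjusted p = 3.62e-06). Plpp1 and Plpp3, phosphatases that degrade this lipid outside the cell, were opposed: Plpp1 was at 1719 ± 229 CPM in RPF and 171 ± 18.1 CPM in FRC (edgeR adjusted p = 9.78e-07), and Plpp3 at 18.1 ± 6.03 and 423 ± 9.86 CPM (edgeR adjusted p = 5.17e-06). Ptgs2, which encodes the inducible cyclooxygenase, was at 3.96, 2.61 and 2.68 CPM in RPF and at 1243, 1632 and 1647 CPM in FRC (edgeR adjusted p = 1.22e-07), whereas Ptges, which makes prostaglandin E from its product, was at 354 ± 8.75 and 131 ± 24.1 CPM. Spns2, the exporter of sphingosine 1-phosphate, was at 125 ± 20.4 and 639 ± 104 CPM.

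Steroid, oxysterol and retinoid enzymes numbered 9 higher and 11 lower of 45, or 10 and 10 with upper quartile scaling. Hsd11b1, which regenerates active glucocorticoid, was at 901, 1055 and 913 CPM in RPF and at 64.1, 55.7 and 52.5 CPM in FRC (log2 fold change 4.06, SE 0.15, edgeR adjusted p = 5.16e-07), while Hsd11b2, which inactivates it, was at 1.90 ± 0.772 and 29.5 ± 8.81 CPM. Rdh10, which oxidises retinol, was at 1322 ± 41.4 and 175 ± 18.2 CPM. The retinaldehyde dehydrogenases of the next step, Aldh1a1 and Aldh1a2, were at 114 ± 27.4 and 17.1 ± 8.29 CPM in FRC and at 8.82 ± 5.14 and 0.00658 ± 0.0114 CPM in RPF. The cytochrome P450 genes Cyp4b1 and Cyp2s1 were at 776 ± 133 and 289.8 ± 54.2 CPM in RPF and 15.5 ± 6.65 and 1.29 ± 1.79 CPM in FRC. Cyp2f2 and Cyp2e1 were at 1113 ± 401 and 285 ± 52.9 CPM in FRC and at 0.273 ± 0.0725 and 0.0684 ± 0.0593 CPM in RPF. Cyp7b1, an enzyme of oxysterol ligand synthesis, was at 7.61 ± 3.56 and 149.6 ± 9.66 CPM. Lpl, lipoprotein lipase, was at 7.28, 6.36 and 6.18 CPM in RPF and at 1499, 1652 and 1383 CPM in FRC (edgeR adjusted p = 4.22e-05), and G0s2, which inhibits triglyceride lipase, at 290.4 ± 17.4 and 17.3 ± 8.01 CPM. Of 34 genes of fatty acid synthesis and lipid storage 6 were called in each direction, or 35.3% against 25.9% over all genes. Cholesterol synthesis and uptake had 1 of 28 higher and 8 lower (5 to 9), or 5 lower with upper quartile scaling. The share called in that list was 32.1%, and the cholesterol exporter Abca1 was at 151 ± 29.2 and 401 ± 47.8 CPM. The gene higher in RPF was Mvd, an enzyme of the mevalonate pathway, at 17.6 ± 4.73 and 6.20 ± 0.157 CPM (edgeR adjusted p = 0.0173, and up to 0.0636 without RPF replicate 1 or 3).

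Iron and haem genes were called in both directions, 7 of 38 higher and 13 lower, or 11 and 10 with upper quartile scaling. Besides Slc40a1, the haem transporter Slc48a1 was at 262 ± 14.03 CPM in RPF and 84.8 ± 29.8 CPM in FRC, Flvcr2 at 70.9 ± 20.4 and 2.84 ± 1.65 CPM, and the iron sensor Hfe at 327 ± 17.4 and 138 ± 24.4 CPM. Alad, an enzyme of haem synthesis, was at 249.5 ± 18.03 and 31.4 ± 9.39 CPM, and the part of erythroid RNA in it was not tested. Among the 13 lower genes, the ferritin heavy chain gene Fth1 was at 2438 ± 320.4 CPM in RPF and 6905 ± 355 CPM in FRC, the ferrireductase Steap4 at 8.47 ± 5.60 and 3107 ± 328 CPM, the importer Slc39a14 at 12.03 ± 0.901 and 91.7 ± 33.0 CPM, and the ferroxidase Cp at 529 ± 52.4 and 1604 ± 171 CPM. Of 44 antioxidant and glutathione enzymes 6 were higher and 17 lower. Gsta3 was at 216 ± 10.1 and 1.61 ± 1.44 CPM and Gpx3, second to Slc40a1 among these metabolic genes in level per kilobase in RPF, at 3842 ± 536 and 1985 ± 259 CPM (edgeR adjusted p = 0.0103, and 0.0868 in the test against a 1.5-fold change). Gstm1 was at 125 ± 7.68 and 1308 ± 76.2 CPM and Sod2 at 92.3 ± 8.71 and 309.5 ± 56.4 CPM.

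Of 75 nuclear genes of the respiratory chain 3 were higher in RPF (1 to 7) and 1 lower, against 25.9% called in either direction over all genes, and with upper quartile scaling 10 were higher and 0 lower. Ndufc2, a subunit of complex I, was at 91.8 ± 2.38 and 43.4 ± 4.34 CPM, and Atp5b, of the ATP synthase, was not called at 1058 ± 63.6 and 1241 ± 103 CPM. The gene lower in RPF was Ndufs4, also of complex I, at 44.8, 31.5 and 36.1 CPM against 63.9, 62.0 and 58.8 CPM in FRC (edgeR adjusted p = 0.031), and its call was lost in 8 of the alternatives, upper quartile scaling among them. The polyA RNA of the mitochondrial genome differed: 7 of 8 genes were lower in RPF and 0 higher (median -1.99). mt-Cytb was at 1813, 2032 and 1575 CPM in RPF and at 9050, 9606 and 11320 CPM in FRC (log2 fold change -2.47, SE 0.14, edgeR adjusted p = 4.68e-06). The groups did not overlap. Glycolysis had 2 of 28 higher and 6 lower. The hexokinase gene Hk2 was at 1.54 ± 1.18 CPM in RPF and 63.8 ± 7.001 CPM in FRC, Pfkp at 68.3 ± 2.84 and 175 ± 14.98 CPM and Pfkl at 156 ± 13.96 and 69.5 ± 23.7 CPM, while Ldha was not called at 562 ± 28.2 and 506 ± 80.0 CPM. The citric acid cycle had 1 of 29 higher and 6 lower (3 to 6), or 5 and 4 with upper quartile scaling. Idh1, the cytosolic isocitrate dehydrogenase of that list, was at 75.8 ± 11.6 and 181 ± 27.1 CPM. Sdhd, a succinate dehydrogenase subunit, was the gene of the cycle higher in RPF, at 140.4, 139 and 145 CPM against 91.7, 119 and 69.7 CPM in FRC (edgeR adjusted p = 0.0383), and its call was lost in 8 of the alternatives. Fatty acid oxidation had 1 of 31 higher and 5 lower (1 to 4), or 2 and 2. Glycolysis, the cycle and fatty acid oxidation were called at 28.6%, 24.1% and 19.4%, close to or under the 25.9% over all genes. Cpt2, which readies fatty acids for oxidation in the mitochondrion, was at 39.6 ± 1.65 CPM in RPF and 21.6 ± 1.08 CPM in FRC (edgeR adjusted p = 0.033), and its call was lost without any 1 of the libraries. Acadvl, a dehydrogenase of long-chain fatty acids, was lower in RPF, at 56.9 ± 7.38 against 89.1 ± 4.10 CPM in FRC. Its edgeR adjusted p was 0.00998, or 0.388 in the test against a 1.5-fold change.

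Markers of other cells were measured in the same libraries, and their part in the results was not tested. Red pulp macrophage markers had 4 of 12 tested genes higher in RPF (1 to 3, the lowest without RPF replicate 2) and 1 lower (0 without any 1 library), and Cd5l had 0 counts in FRC and was at 12.8 ± 3.83 CPM in RPF. Erythroid markers had 4 of 10 higher (4 to 7, the highest without FRC replicate 3) and 0 lower. Neutrophil markers had 3 of 8 higher (1 without any 1 library but FRC replicate 3), at sums of 52.0 to 363 CPM against 8.09 to 22.6 CPM. Blood endothelial markers summed to between 485 and 593 CPM in RPF and between 118 and 161 CPM in FRC. Most of that sum was Plvap, at 376 ± 23.9 CPM in RPF and 48.1 ± 5.63 CPM in FRC. Of 12 tested, 3 were higher in RPF and 0 lower. Kdr was at 11.2 ± 1.22 CPM in RPF with 0 counts in FRC, and the endothelial cadherin Cdh5 was at 1.98 ± 1.99 and 0.612 ± 0.730 CPM. Emcn went the other way, at 0.581 ± 0.990 CPM in RPF and 15.6 ± 9.22 CPM in FRC, and was not called. Pecam1 and Vwf also had higher means in FRC and were not called. Of the mural cell genes, Rgs5 and Abcc9 were at 323 ± 52.8 and 1579 ± 367 CPM in FRC and at 0.138 ± 0.0664 and 29.2 ± 4.19 CPM in RPF, Tagln at 76.4 ± 27.9 CPM in RPF and 13.2 ± 7.97 CPM in FRC. B and plasma cell markers summed to between 252 and 535 CPM in RPF and between 469 and 1920 CPM in FRC. The lymphatic endothelial sum of 1040 to 1190 CPM in FRC was nearly all Ccl21a, which the list shares with T zone reticular cells, and Lyve1 had 0 counts in RPF. For 3 against 3 libraries the smallest exact two-sided permutation p of a summed share is 0.1. The macrophage, neutrophil, erythroid and endothelial lists reached it, but so did most of the 20 lists compared. Only the lists of B and plasma cells (0.5), epithelium and acinar pancreas (0.7) and Y-linked genes (0.7) did not.

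**Figure D5:**
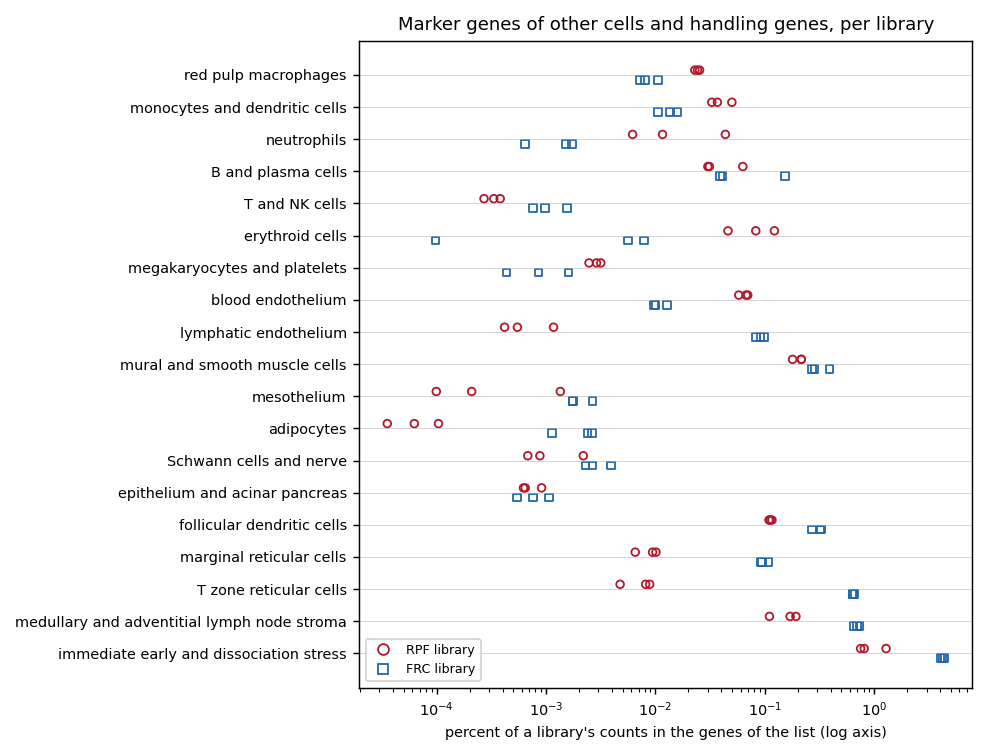
Share of each library's counts held by the marker genes of other cells and by immediate early and dissociation stress genes, in percent on a log axis. Red circles are the 3 RPF and blue squares the 3 FRC libraries. Immediate early genes and the markers of T zone reticular cells lie to the right in FRC, and erythroid, neutrophil, macrophage and blood endothelial markers lie to the right in RPF.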

How the data were processed

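RNA of 9 libraries was analysed as the raw read counts per Ensembl gene that the authors deposited. Per the submitters' processing notes, cutadapt 1.10, Bowtie2 2.2.8, STAR 2.5.3a, HTSeq 0.6.1p1 and build mm10 were used; the strand setting of the counting was not given in the sources used here, nor the annotation release, so overlapping and antisense genes cannot be told apart. For CPM per kilobase, each gene's level was divided by the median length of its transcripts, a deposited column in bases. A further 24 columns of per-library values, among them 2 raw count columns of libraries outside the sample list, were not used.

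The table held 27370 genes, 881 of them with no count. Of the 26489 with a count, 15103 passed edgeR's expression filter by group. These were fitted with edgeR 4.0.16 in R 4.3.3 (TMM scaling, robust quasi-likelihood fit, 3 groups, 9 libraries). RPF were tested against FRC, both at steady state, with Benjamini-Hochberg adjustment over all genes tested. TMM factors were 0.765 to 0.827 for FRC and 1.18 to 1.20 for RPF. Folds given for single genes are ratios of mean CPM, and a group at 0 was set to a floor of 3 counts over the group. Ratios with 1 to 3 counts carry exact 95% intervals, which, like floors, cover counting error only. The test was checked on simulated counts.

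Members and lists were chosen with earlier results of these data known. Named genes are, per class, the 4 largest rises and falls at 10 CPM or more (2 CPM for channels, transporters and factors) without overlap, the most abundant per kilobase, the smallest p per list and direction, the sort and spleen patterning genes, and further examples of a list's counts. Some genes of this rule are not reported here, and the others are named also where the call was lost under an alternative. The alternatives tried were scaling by RLE or upper quartile, no filter and a 1 CPM filter, DESeq2 1.42.0, limma-voom 3.58.1, no robust step, the 6 libraries alone, a 1.5-fold test, a term for Y-linked reads, and leaving out each library. Promoter windows came from RefSeq's table for GRCm38.p6, matched by gene. FRC replicate 1 and RPF replicate 1 had at most 1 count of Y-linked genes and the other libraries of these groups had more. Exact permutation tests were used for summed shares.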

Additional observations from a re-analysis of the deposited data

How the results depend on the processing

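No paired analysis was possible because the labels give no replicate numbers and do not say which FRC and RPF libraries share mice. The replicate numbers used here follow label order only. The counts of genes higher (1734) and lower (2174) in RPF stayed within 1.5 times under every alternative but the test against a 1.5-fold change, which called 1095 and 1447. They were 1804 and 2133 with RLE scaling, 2158 and 1821 with upper quartile scaling, 1506 and 1895 with no filter, 2354 and 2619 with DESeq2 and 2186 and 2628 with limma-voom. With each library left out in turn the higher genes numbered 1168 to 1566 and the lower ones 1620 to 1878. Among calls made under both a setting and the main fit, none had the opposite sign. Of 154 tested genes chosen by the naming rule 150 were called and 137 were called under every setting that gave them a value. The rule itself took mostly called genes with large changes or small p, so these counts do not stand for all calls. Of all calls of the main fit, 65.0% were also made in the test against a 1.5-fold change. With each library left out in turn, between 70.5% and 78.5% were made again. Upper quartile scaling turned the balance of the citric acid cycle from 1 higher and 6 lower to 5 and 4, and the number of nuclear respiratory chain genes higher in RPF was 3, 10 with that scaling and 11 with DESeq2. Iron and haem genes higher in RPF were 7, 11 with that scaling and 12 with DESeq2. Inorganic ion transporters higher in RPF were 9, or 14 with DESeq2. The causes were not tested.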

Other observations

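Markers of other lymph node stroma were also measured. Of 3 markers of marginal reticular cells 2 were lower in RPF and 0 higher, at sums of 54.9 to 86.0 CPM in RPF and 1140 to 1420 CPM in FRC. Nearly all of that was Cxcl13, which the list shares with follicular dendritic cells; without it the sums were 0.0395 to 2.53 CPM and 48.0 to 95.2 CPM. Of 4 genes of follicular dendritic cells 2 were lower and 0 higher, at 908 to 977 CPM against 3380 to 4260 CPM, or 830.0 to 922 CPM against 2320 to 2910 CPM without Cxcl13. Of 8 genes of medullary and adventitial lymph node stroma 4 were lower and 1 higher, at 917 to 1640 CPM against 7790 to 9580 CPM. Nr4a1, one of the lower genes and also of the list of immediate early and dissociation stress genes, held the largest part of the FRC sum; without it the sums were 616 to 1110 CPM and 3970 to 4070 CPM. These sums did not overlap between the groups, and the exact two-sided permutation p of each share was 0.1, the smallest that 3 against 3 libraries allow (0.118 after Benjamini-Hochberg adjustment over 20 lists).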
